A study of Mus musculus with 6 samples.

Results

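The Id proteins (Id1, Id2, Id3 and Id4), the E proteins (Tcf3, Tcf4 and Tcf12) and the inhibitory Smads (Smad6 and Smad7) were followed in N2a cells after transfection of an siRNA against circRtn4. These 9 genes were chosen by their symbols from the 54532 genes listed. N2a (Neuro2A) is a neuroblastoma cell line of the mouse, for which the labels give the strain C57BL/6. The cells were grown in MEM with fetal bovine serum, and RNA was sequenced from 3 libraries that had received a control siRNA (si-NC) and 3 that had received si-circRtn4. CircRtn4 is a circular RNA joined head to tail from exons of Rtn4, and the comparison asks which genes changed when it was targeted. All 6 libraries therefore carry an siRNA, and no untransfected cells were measured. The labels give neither the siRNA dose, nor the time between transfection and harvest, nor whether the cells had been differentiated. The study's methods give a dose and times for N2a transfections in general. There the cells were moved to differentiation medium, with little serum and retinoic acid, before harvest. Whether the sequenced cells were treated this way is not stated. The labels do not say whether the replicates came from separate cultures, so that the p-values measure the spread between these libraries only. The values are FPKM, fragment numbers per gene corrected for gene length and library depth, as the authors deposited them.

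E proteins are basic helix-loop-helix (bHLH) transcription factors that pair with tissue-restricted bHLH factors, such as the proneural proteins, and bind E-box motifs in DNA. Id proteins have the helix-loop-helix domain but lack the basic region, so that an E protein bound to an Id protein cannot bind DNA, and they are known for holding neural precursors undifferentiated. Id genes are direct targets of bone morphogenetic protein (BMP) signalling through Smad1, Smad5, Smad9 and Smad4. Smad6 and Smad7 are induced by the same family of signals and limit them at the receptors, Smad6 mainly for BMP and Smad7 for BMP and TGF-beta alike. Tcf3, Tcf4 and Tcf12 are the bHLH proteins E2A, E2-2 and HEB, and are not the Tcf/Lef factors of Wnt signalling.

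The siRNA and the microRNA for which circRtn4 is named as a sponge are shown first, with the seed (bases 2 to 8) in capitals, because the seed sets the letters that were searched for in the 3′ UTRs of these genes. The guide strand is the reverse complement of the strand that the study lists, which was read as the passenger strand, and the mature microRNA is from RefSeq.
si-circRtn4, listed strand: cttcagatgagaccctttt
si-circRtn4, guide strand: aAAAGGGTctcatctgaag
miR-24-3p: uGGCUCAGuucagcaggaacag

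The 7-base site for the guide seed (ACCCTTT) was searched for in 1 annotated 3′ UTR per gene (GENCODE M21, GRCm38). It was found 1 time in Id2 and 2 times in Id4, and in none of the other 7 genes. Of the 10682 genes tested that have such a UTR, 1336 (12.5%) held this site. The site for miR-24-3p (CTGAGCC) was found in none of the 9 genes and in 2090 (19.6%) of the 10682. No transcript of the 9 genes held the whole siRNA target of 19 bases. The 3 guide sites are shown with 10 bases on each side and the site in capitals. None of them is followed by A, which would make it an 8-base site. They lie on the minus strand at chr12:25093966-25093972 (Id2) and on the plus strand at chr13:48263247-48263253 and chr13:48265868-48265874 (Id4).
Id2 site: tgtaaacttaACCCTTTtatacaaaat
Id4 first site: tatttttatcACCCTTTtgaaggtgca
Id4 second site: aacagtatatACCCTTTggtttgaaag

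Promoter windows of RefSeq transcripts (GRCm38.p6, 250 bases before to 50 after the start) were given for 6 of the 9 genes, with 3 windows for Tcf12. Id1, Tcf4 and Smad7 had none. Each window was searched for the E-box CANNTG, for GGCGCC, a GC-rich element known from BMP-responsive promoters, and for the Smad palindrome GTCTAGAC. All 3 motifs read the same on both strands, and no match overlaps another in the windows shown. Id2 and Id4 each held GGCGCC, at positions -231 and -148 from the start, as did 11.9% of all 32851 windows. Smad6 held GTCTAGAC from position -4, a motif found in 0.213% of all windows. An E-box was present in the windows of Id2, Tcf3, Tcf12 (all 3) and Smad6 and absent from those of Id3 and Id4, where 72.3% of all windows had at least 1. A match describes the letters of the window and was not tested as a binding site. The windows of Id2, Id4 and Smad6 are shown up to 25 bases after the start, with the motifs in capitals, because they hold a Smad-related motif. They lie at chr12:25096068-25096342 on the minus strand, chr13:48260866-48261140 on the plus strand and chr9:64022035-64022309 on the minus strand. In the Id2 window CAGCTG is the E-box, and in the Smad6 window CATATG is.
Id2 window: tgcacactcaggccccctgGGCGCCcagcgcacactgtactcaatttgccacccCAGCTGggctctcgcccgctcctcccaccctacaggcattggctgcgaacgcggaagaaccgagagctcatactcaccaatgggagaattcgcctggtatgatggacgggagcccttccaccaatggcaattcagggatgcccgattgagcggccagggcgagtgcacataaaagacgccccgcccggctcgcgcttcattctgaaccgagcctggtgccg
Id4 window: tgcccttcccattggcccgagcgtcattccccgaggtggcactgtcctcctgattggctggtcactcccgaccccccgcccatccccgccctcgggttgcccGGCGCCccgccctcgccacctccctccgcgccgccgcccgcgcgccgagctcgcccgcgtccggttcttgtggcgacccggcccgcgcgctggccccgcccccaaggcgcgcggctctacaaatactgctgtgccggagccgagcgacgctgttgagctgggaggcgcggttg
Smad6 window: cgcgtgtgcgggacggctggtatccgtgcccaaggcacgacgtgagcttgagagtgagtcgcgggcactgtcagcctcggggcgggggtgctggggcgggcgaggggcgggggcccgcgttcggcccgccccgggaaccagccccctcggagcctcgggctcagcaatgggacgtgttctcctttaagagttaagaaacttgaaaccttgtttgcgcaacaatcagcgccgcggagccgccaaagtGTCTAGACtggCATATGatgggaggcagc

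The libraries were similar in depth, with 13541198 to 15122063 reads on genes. Of the 10 noradrenergic and neuronal markers, 9 averaged at least 1 FPKM. The summed level of this list was 1057 to 1192 FPKM in si-NC and 770.3 to 1087 FPKM in si-circRtn4. Within it, the genes that were lower in every si-circRtn4 library than in every si-NC library included Phox2a, Dbh and Map2, and Elavl4 was higher. Dbh was at 3.72 to 8.52 FPKM in si-NC and 0.522 to 0.664 FPKM in si-circRtn4, Phox2a at 205.9 to 218.2 and 128.5 to 166.0 FPKM, and Elavl4 at 10.4 to 15.6 and 21.5 to 28.4 FPKM. Markers of mesenchymal cells summed to 1.77 to 3.27 FPKM in si-NC and to 4.59 to 6.97 FPKM in si-circRtn4, with 1 of 7 (Pdgfrb) above 1 FPKM on average. Pdgfrb (1.39 to 2.77 FPKM in si-NC, 4.06 to 6.18 FPKM in si-circRtn4) and Dcn (0.0238 to 0.0734 and 0.144 to 0.209 FPKM) were higher in every si-circRtn4 library, whereas the collagens Col1a1 and Col3a1 stayed at or below 0.257 and 0.00728 FPKM. Glial markers summed to 4.92 to 5.70 and 3.67 to 5.39 FPKM, nearly all Mbp with Aqp4 at 0 in every library, and markers of blood and endothelium to 0.777 to 1.26 and 0.612 to 1.02 FPKM. The part of these markers in the results on Id and E proteins was not tested. Rtn4, the gene of the targeted circle, had 61.0, 66.8 and 69.8 FPKM in si-NC and 50.1, 56.7 and 62.7 FPKM in si-circRtn4, a log2 fold change of -0.22 (adjusted p = 0.216 in limma, and 0.0447 with replicate number as a block). These values do not separate the linear RNA of the gene from the circle and do not give the level of circRtn4. How far the libraries held circular RNA was not measured.

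Id1 was higher in the si-circRtn4 libraries and was the 1 gene of the 9 that passed the threshold. Id4 was higher by nearly the same ratio from a much lower level, and Id2, the least expressed of the 9, was lower. Id3, Tcf4, Tcf12, Smad6 and Smad7 overlapped between the groups. Smad7 and Tcf3 were higher on average by smaller margins that did not pass the threshold. The threshold was an adjusted p under 0.05 in limma on log2(FPKM + 1), a scale on which genes of low FPKM appear to change less than they do. The test covered 12749 genes (mean over the libraries of 1 FPKM or more), among them 8 of the 9 genes, and 1 of these 8 was called. Of all genes tested, 9.19% were called in either direction and 4.36% were called higher. At an unadjusted p under 0.05 the genes were Id1, Id4 and Tcf3, 3 of 8, where the share of all genes tested was 25.9%. The same 3 genes were higher in every si-circRtn4 library than in every si-NC library, which held for 16.2% of all genes tested. In bulk RNA, fewer cells that express a gene and less of its RNA per cell cannot be told apart.

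**Figure D1:**
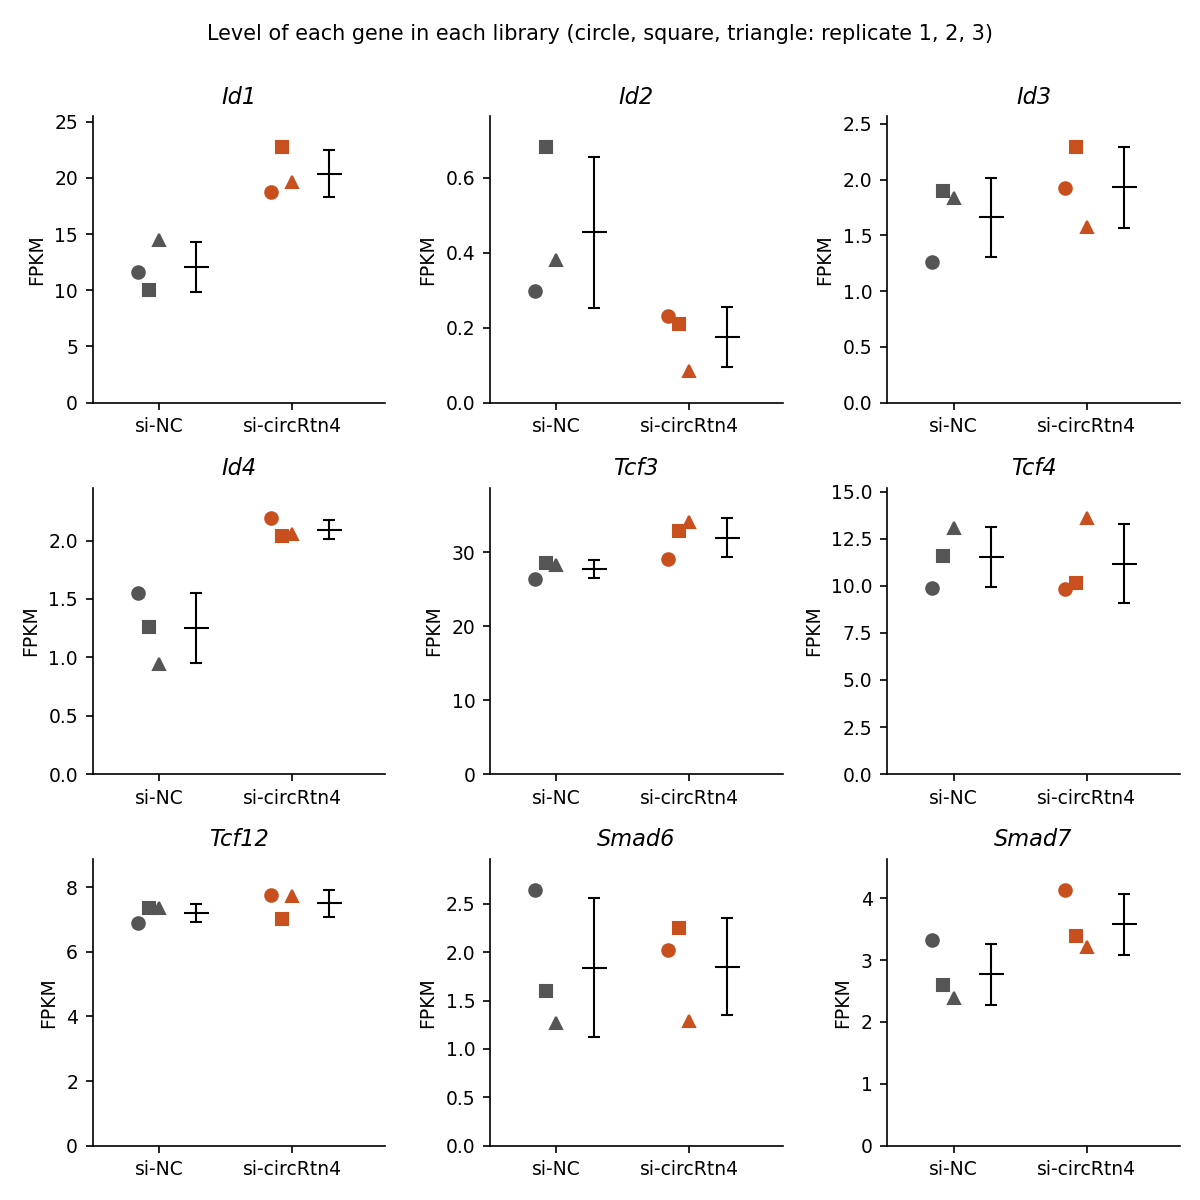
FPKM of each of the 9 genes (vertical axes, each from 0) in the si-NC and si-circRtn4 libraries. Circles, squares and triangles are replicates 1, 2 and 3, and the bars beside them are the mean ± SD of 3 libraries. Id1, Id4 and Tcf3 lie higher in all si-circRtn4 libraries than in all si-NC libraries, Id2 lies lower, and the other 5 genes overlap between the groups.

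Id1 (ENSMUSG00000042745), a BMP target and an inhibitor of E proteins, is a plus strand gene of chromosome 2 (152736251 to 152737410, GRCm38). Its level was 11.7, 10.0 and 14.5 FPKM in si-NC and 18.7, 22.8 and 19.6 FPKM in si-circRtn4. All si-circRtn4 libraries were above all si-NC libraries, and both extremes, the lowest si-NC and the highest si-circRtn4 value, were of replicate 2. The means were 12.1 ± 2.24 and 20.4 ± 2.12 FPKM (SD, n = 3), a ratio of 1.69, with 168 to 411 reads behind each value. On the log2 scale the change was 0.72 with a standard error of 0.13 (95% interval 0.41 to 1.03, adjusted p = 0.0193 in limma with Benjamini-Hochberg adjustment). The exact permutation test (two-sided) returned p = 0.1, the lowest it can reach with 3 libraries per group. Without 1 library the log2 fold change stayed between 0.61 and 0.85, but the call was lost in limma without si-NC replicate 1 (adjusted p = 0.05) or 2 (adjusted p = 0.0588) and without si-circRtn4 replicate 2 (adjusted p = 0.0699). It was also lost when all detected genes were tested (adjusted p = 0.0754 in limma), with a range of 0.00537 to 0.0754 for the adjusted p in all 14 alternatives.

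Id2 (ENSMUSG00000020644), an Id protein that also binds the retinoblastoma protein, lies on the minus strand of chromosome 12 from 25093799 to 25097140. It was at 0.299, 0.683 and 0.381 FPKM in si-NC and at 0.231, 0.211 and 0.0846 FPKM in si-circRtn4. These values rest on 11, 24 and 13 reads against 8, 8 and 3 reads, the highest again in si-NC replicate 2. Every si-circRtn4 library was below every si-NC library, with means of 0.454 ± 0.202 and 0.175 ± 0.0792 FPKM (SD, n = 3), and the second mean was 38.6% of the first. Pooled over libraries, 48 against 19 reads gave a ratio of 0.389 per read of depth, with an exact 95% interval of 0.216 to 0.673 that covers counting error only. The mean of 0.315 FPKM was below the filter, so Id2 was not among the genes tested. When all detected genes were tested, its log2 fold change of -0.30 did not pass the threshold (adjusted p = 0.293 in limma), and the two-sided exact permutation test gave p = 0.1. Id2 therefore differed in direction from Id1 and Id4, at a depth of at most 24 reads per library. The share of all genes that were lower in every si-circRtn4 library was not counted.

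Id3 (ENSMUSG00000007872), which is often induced together with Id1, is a plus strand gene of chromosome 4 (136143497 to 136145755). It was at 1.26, 1.90 and 1.84 FPKM in si-NC and at 1.92, 2.30 and 1.57 FPKM in si-circRtn4, so the groups overlapped. Its log2 fold change was 0.14 with a 95% interval of -0.21 to 0.49 (adjusted p = 0.619 in limma). The upper end of this interval is below the log2 fold change of 0.72 estimated for Id1, and the difference between the genes was not tested.

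Id4 (ENSMUSG00000021379), an Id protein of neural precursors, is a plus strand gene of chromosome 13 (48261228 to 48266026). It was at 1.55, 1.26 and 0.947 FPKM in si-NC and at 2.19, 2.04 and 2.06 FPKM in si-circRtn4. The si-circRtn4 libraries were close together and all above the si-NC libraries. The means were 1.25 ± 0.301 and 2.09 ± 0.0846 FPKM (SD, n = 3), a ratio of 1.67, from 51 to 122 reads per library. The log2 fold change of 0.47 (standard error 0.13, 95% interval 0.15 to 0.78) did not pass the threshold (adjusted p = 0.0736 in limma). With replicate number as a block the adjusted p was 0.0492 in limma, and in limma-voom on the recovered reads the log2 fold change was 0.78 (adjusted p = 0.0306). The adjusted p ranged from 0.0306 to 0.196 in the 14 alternatives and was under 0.05 in 3. A330033J07Rik and Gm49291, which share 82 and 171 exon bases with Id4 on the other strand, were listed at 0 in every library.

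**Figure D2:**
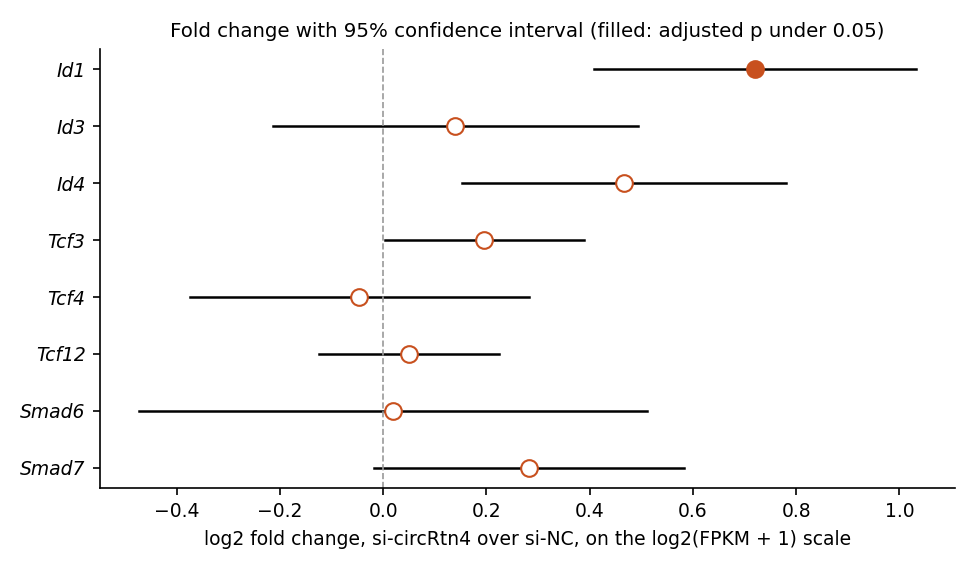
Log2 fold change of si-circRtn4 over si-NC on the log2(FPKM + 1) scale (horizontal axis) for the 8 genes tested, with 95% confidence intervals from limma. The filled point (Id1, 0.72) had an adjusted p under 0.05. The intervals of Id4 (0.15 to 0.78) and Tcf3 (0.00 to 0.39) also lie above 0, and those of the other 5 genes include 0.

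Tcf3 (ENSMUSG00000020167), the gene of the E12 and E47 proteins, lies on the minus strand of chromosome 10 from 80409514 to 80433647 and had the highest FPKM of the 9 genes in every library. It was at 26.4, 28.6 and 28.2 FPKM in si-NC and at 29.1, 32.8 and 34.1 FPKM in si-circRtn4. The groups did not overlap, but the gap between the highest si-NC and the lowest si-circRtn4 library was small beside the range within either group. The means were 27.8 ± 1.17 and 32.0 ± 2.62 FPKM (SD, n = 3), a ratio of 1.15 over 1596 to 2064 reads per library. The log2 fold change of 0.20 (standard error 0.083) did not pass the threshold (adjusted p = 0.186 in limma, and 0.0610 to 0.392 over the alternatives).

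Tcf4 (ENSMUSG00000053477), the E protein E2-2, lies on the plus strand of chromosome 18. It was at 9.90, 11.6 and 13.1 FPKM in si-NC and at 9.82, 10.1 and 13.6 FPKM in si-circRtn4, where replicate 3 was the highest library of both groups. The log2 fold change of -0.05 had a 95% interval of -0.37 to 0.28 (adjusted p = 0.878 in limma), and its sign turned in 4 of the 14 alternatives. Tcf12 (ENSMUSG00000032228), the E protein HEB, lies on the minus strand of chromosome 9 from 71842688 to 72111871. It was at 6.90, 7.36 and 7.35 FPKM in si-NC and at 7.77, 7.01 and 7.72 FPKM in si-circRtn4. It had the narrowest 95% interval of the 8 genes tested (-0.12 to 0.22) around a log2 fold change of 0.05 (adjusted p = 0.731 in limma). Both E proteins overlapped between the groups.

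Smad6 (ENSMUSG00000036867), the inhibitory Smad that acts mainly on BMP signalling, lies on the minus strand of chromosome 9 from 63953076 to 64022059. It was at 2.65, 1.601 and 1.27 FPKM in si-NC and at 2.02, 2.25 and 1.29 FPKM in si-circRtn4. Its group means, 1.84 ± 0.718 and 1.85 ± 0.500 FPKM (SD, n = 3), differed by far less than the libraries within a group. The 95% interval of the log2 fold change of 0.02 ran from -0.47 to 0.51 (adjusted p = 0.970 in limma), the widest of the 8 genes tested, and the sign turned in 4 of the 14 alternatives. Smad7 (ENSMUSG00000025880), the inhibitory Smad of both signalling branches, lies on the plus strand of chromosome 18. It was at 3.33, 2.59 and 2.39 FPKM in si-NC and at 4.14, 3.38 and 3.21 FPKM in si-circRtn4. The lowest si-circRtn4 library lay below the highest si-NC library, so the groups overlapped. The means were 2.77 ± 0.494 and 3.58 ± 0.492 FPKM (SD, n = 3), a ratio of 1.29. The log2 fold change of 0.28 (standard error 0.13) did not pass the threshold (adjusted p = 0.219 in limma, and 0.0601 with replicate number as a block).

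Libraries with the same replicate number deviated together across genes, so the difference was also taken within each pair. Id1 was higher in si-circRtn4 by 0.641, 1.11 and 0.415 on the log2(FPKM + 1) scale in pairs 1, 2 and 3. Id4 was higher by 0.324, 0.425 and 0.650. Smad7 differed by 0.247, 0.287 and 0.314, and Tcf3 by 0.132, 0.192 and 0.263. The pairs of Smad7 therefore lay closer together than its libraries within a group did. Id2 had a negative difference in each pair (-0.0779, -0.475 and -0.349), whereas Id3, Tcf4, Tcf12 and Smad6 had pairs of both signs. The share of all genes with the same sign in all 3 pairs was not counted, so these signs have no background to be set against. With replicate number as a block, Id1 and Id4 were called, 2 of the 8 genes tested, where 19.0% of all genes tested were called.

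**Figure D3:**
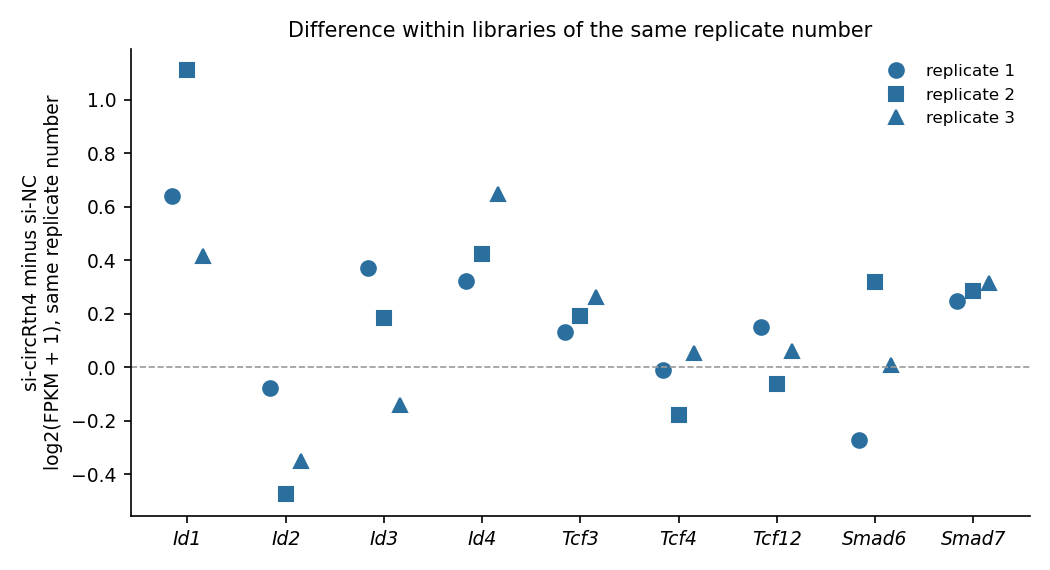
Difference in log2(FPKM + 1) between the si-circRtn4 and the si-NC library of the same replicate number (vertical axis) for each of the 9 genes. Circles, squares and triangles are replicates 1, 2 and 3, and the dashed line marks no difference. All 3 pairs lie above 0 for Id1, Id4, Tcf3 and Smad7, and all 3 lie below 0 for Id2.

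Ordered by mean FPKM in si-NC, the genes ran Tcf3, Id1, Tcf4, Tcf12, Smad7, Smad6, Id3, Id4 and Id2. The libraries of Id1 and Tcf4 overlapped there, as did those of neighbours from Smad7 to Id4, whereas Tcf3, Tcf12 and Id2 were apart from their neighbours. In si-circRtn4, Id1 no longer overlapped Tcf4, and Id4 came before Id3 and Smad6, with which it overlapped. This order depends on gene length, because FPKM divides by all annotated exons of a gene, 27382 bases for Tcf4 and 1160 for Id1. With the length of 1 coding transcript per gene instead (8577 bases for Tcf4, 2946 for Tcf3 and 6299 for Tcf12), Tcf4 was at a mean of 36.8 in si-NC and 35.7 in si-circRtn4, beside 38.1 and 43.9 for Tcf3 and 17.8 and 18.5 for Tcf12. On that scale Id1, whose length did not change, was below Tcf12 in si-NC (12.1) and above it on average in si-circRtn4 (20.4). Which isoforms the cells used was not measured.

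The summed level of the Id genes separated the groups, and that of the E proteins did not. The Id genes together were at 14.8, 13.9 and 17.6 FPKM in si-NC and at 23.1, 27.3 and 23.3 FPKM in si-circRtn4. The E proteins together were at 43.2, 47.6 and 48.7 FPKM in si-NC and at 46.7, 49.98 and 55.4 FPKM in si-circRtn4. The summed Id level was thus higher in every si-circRtn4 library than in every si-NC library, by a ratio of means of 1.59, while the summed E protein level overlapped between the groups at a ratio of 1.09. Id1 made up 72.3% to 82.1% of the Id sum in si-NC and 81.2% to 84.1% in si-circRtn4. The other Id genes together went from 3.37 ± 0.409 to 4.20 ± 0.433 FPKM (SD, n = 3) and overlapped between the groups. The Id sum per E protein sum was 0.341, 0.292 and 0.363 in si-NC and 0.494, 0.546 and 0.421 in si-circRtn4. These ranges did not overlap, and the means of 0.332 ± 0.0363 and 0.487 ± 0.0628 (SD, n = 3) gave a ratio of 1.47, or 1.38 to 1.57 without 1 library. With the length of 1 coding transcript per gene the ratio was 1.49, from smaller values of 0.157 to 0.187 in si-NC and 0.220 to 0.299 in si-circRtn4. Without Id1, the other Id genes per E protein sum were at 0.0650 to 0.0808 in si-NC and 0.0671 to 0.0931 in si-circRtn4. These ranges overlapped, at a ratio of means of 1.15. No p is given for these sums, because the genes in them were chosen with earlier results of these data known. Smad6 per Smad7 was 0.649 ± 0.134 in si-NC and 0.518 ± 0.134 in si-circRtn4 (SD, n = 3), with overlapping libraries.

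**Figure D4:**
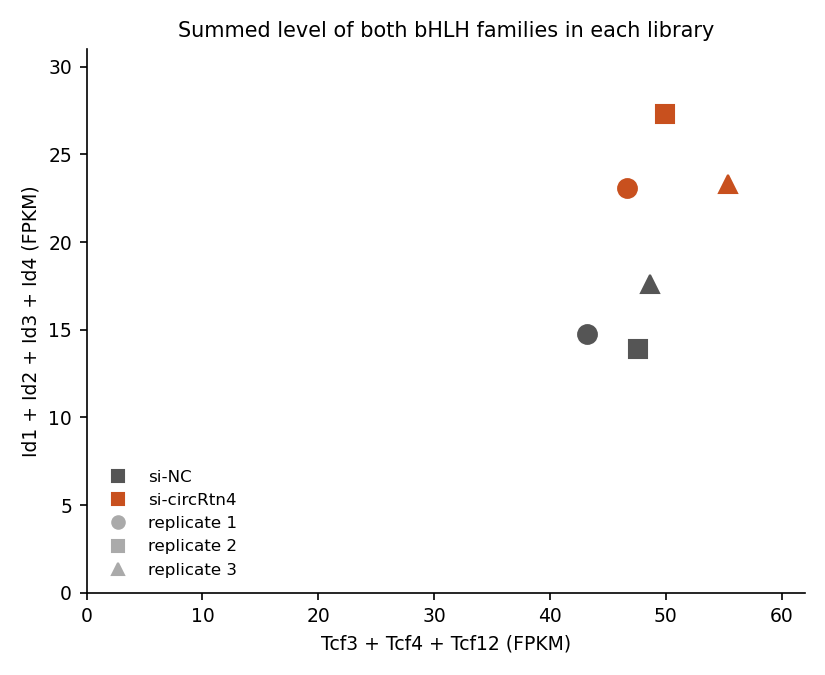
Summed FPKM of Id1 to Id4 (vertical axis) against summed FPKM of Tcf3, Tcf4 and Tcf12 (horizontal axis), 1 point per library, in grey for si-NC and orange for si-circRtn4. The si-circRtn4 points (23.1 to 27.3) lie above the si-NC points (13.9 to 17.6), and the groups overlap along the horizontal axis.

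By root mean square difference of centred log2(FPKM + 1) values over the 6 libraries, the protein-coding genes most like Id1 were Fads3, a fatty acid desaturase family gene (0.0782), and Mical1, which encodes an actin-oxidising enzyme (0.0798). Fads3 was at 12.6, 12.4 and 15.9 FPKM in si-NC and at 19.6, 23.6 and 20.7 FPKM in si-circRtn4, with the same library lowest and the same library highest as for Id1. Its log2 fold change was 0.61 (adjusted p = 0.0197 in limma), and the call was lost in 5 of the 14 alternatives (adjusted p up to 0.0738), among them the fits that left out si-NC replicate 1 or 2 or si-circRtn4 replicate 2 or 3. Mical1 was at 3.36, 3.23 and 4.54 FPKM in si-NC and at 6.30, 6.97 and 7.09 FPKM in si-circRtn4, a log2 fold change of 0.73 (adjusted p = 0.0118 in limma), with the call lost in 2 of the 14 (adjusted p up to 0.0553), 1 of them the fit without si-circRtn4 replicate 2. Both genes were picked for their likeness to Id1, so their change is no separate support for it.

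Around these 9 genes, 153 listed genes of the BMP and TGF-beta pathway and of the bHLH network were examined, of which 61 passed the filter. Higher at an adjusted p under 0.05 in limma were 5 and lower were 2, together 11.5% of those tested beside 9.19% of all genes, with a median log2 fold change of 0.03 beside 0.00. This share is near that of all genes. The calls were not stable: 0 of the 61 were called by limma when si-NC replicate 2 or either of si-circRtn4 replicates 1 and 2 was left out (13 to 17 at an unadjusted p under 0.05). Without si-NC replicate 3 there were 3 (0 higher, 3 lower) and without si-NC replicate 1 there were 4 (3 higher, 1 lower). Fewer of all genes tested were called in these fits too. The shares were 2.98%, 4.19% and 3.83% in the 3 fits with 0 calls, and 5.2% and 6.5% without si-NC replicates 3 and 1. With replicate number as a block 12 were called, where 19.0% of all genes tested were called.

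Ligands were mostly low. The ligand list held 25 genes, among them Bmp1, which encodes a protease and not a ligand. Of the 25, 10 were listed at 0 in every library, among them Bmp2, Bmp4, Bmp6 and Bmp7, the BMPs best known as inducers of Id genes. The BMP antagonist Nog (noggin) was listed at 0 as well. Other ligands of the list were expressed. Gdf15 was at means of 22.3 FPKM in si-NC and 30.3 FPKM in si-circRtn4 (adjusted p = 0.157 in limma). Gdf11 was at 6.51 and 6.73 FPKM (adjusted p = 0.860 in limma) and Gdf7 at 5.91 and 4.56 FPKM (adjusted p = 0.084 in limma). These genes were picked out after their values were seen. Of the 9 genes of this list that were tested, Bmp1 among them, 1 was called higher and 1 lower. Tgfb2 was at 4.10, 3.38 and 3.38 FPKM in si-NC and at 5.69, 5.41 and 5.02 FPKM in si-circRtn4 (log2 fold change 0.47, adjusted p = 0.0261 in limma). Tgfb1, the founding TGF-beta ligand, went the other way, from 3.67, 2.98 and 3.40 FPKM to 2.20, 1.45 and 2.25 FPKM (log2 fold change -0.56, adjusted p = 0.0474 in limma). Tgfb3, named after its values were seen as the lowest point of the lists, was at means of 3.30 and 0.810 FPKM (log2 fold change -1.20) and was not called (adjusted p = 0.0687 in limma). The call of Tgfb1 was lost whichever of the 6 libraries was left out. Over the 14 alternatives the call of Tgfb1 was lost in 10 and that of Tgfb2 in 5.

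Receptors and extracellular modulators gave no call. The 9 type I and type II receptors tested of 14 had a median log2 fold change of -0.06, and the 7 antagonists and modulators tested of 19 one of 0.03. Of the 9 receptors, 3 had a positive and 6 a negative log2 fold change. Bmpr1a, a type I BMP receptor, had the highest (0.22), at a mean of 15.3 FPKM in si-NC and 17.97 FPKM in si-circRtn4 (adjusted p = 0.170 in limma). Acvr1, another type I receptor, was at 4.61 and 4.55 FPKM (log2 fold change -0.02). Amhr2 had the lowest log2 fold change (-0.40), at 4.13 and 2.94 FPKM (adjusted p = 0.126 in limma).

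Among the signalling Smads and their regulators, 22 of 24 were tested, 3 were called higher and none lower, and the median was 0.06. Smad3, which carries TGF-beta rather than BMP signals, was at 5.82, 4.02 and 4.67 FPKM in si-NC and at 7.47, 7.45 and 6.59 FPKM in si-circRtn4 (log2 fold change 0.50, adjusted p = 0.0459 in limma). Zfyve9 (SARA), the anchor that presents Smad2 and Smad3 to their receptor, was at 5.14, 5.23 and 4.88 FPKM in si-NC and at 8.85, 6.94 and 6.93 FPKM in si-circRtn4 (log2 fold change 0.49, adjusted p = 0.0286 in limma). Tgif1, a corepressor of the same Smads, was at 4.79, 4.28 and 4.92 FPKM in si-NC and at 8.20, 6.90 and 6.25 FPKM in si-circRtn4 (log2 fold change 0.51, adjusted p = 0.0275 in limma). Over the 14 alternatives the call was lost in 8 for Smad3, in 7 for Zfyve9 and in 6 for Tgif1. Of the Smads that carry BMP signals, Smad1 was at means of 11.7 and 10.4 FPKM, Smad5 at 15.3 and 16.0 FPKM and Smad9 at 6.86 and 4.69 FPKM. None of them was called, Smad9 with a log2 fold change of -0.46 (adjusted p = 0.0633 in limma), nor was the shared partner Smad4, at 32.3 and 31.3 FPKM.

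**Figure D5:**
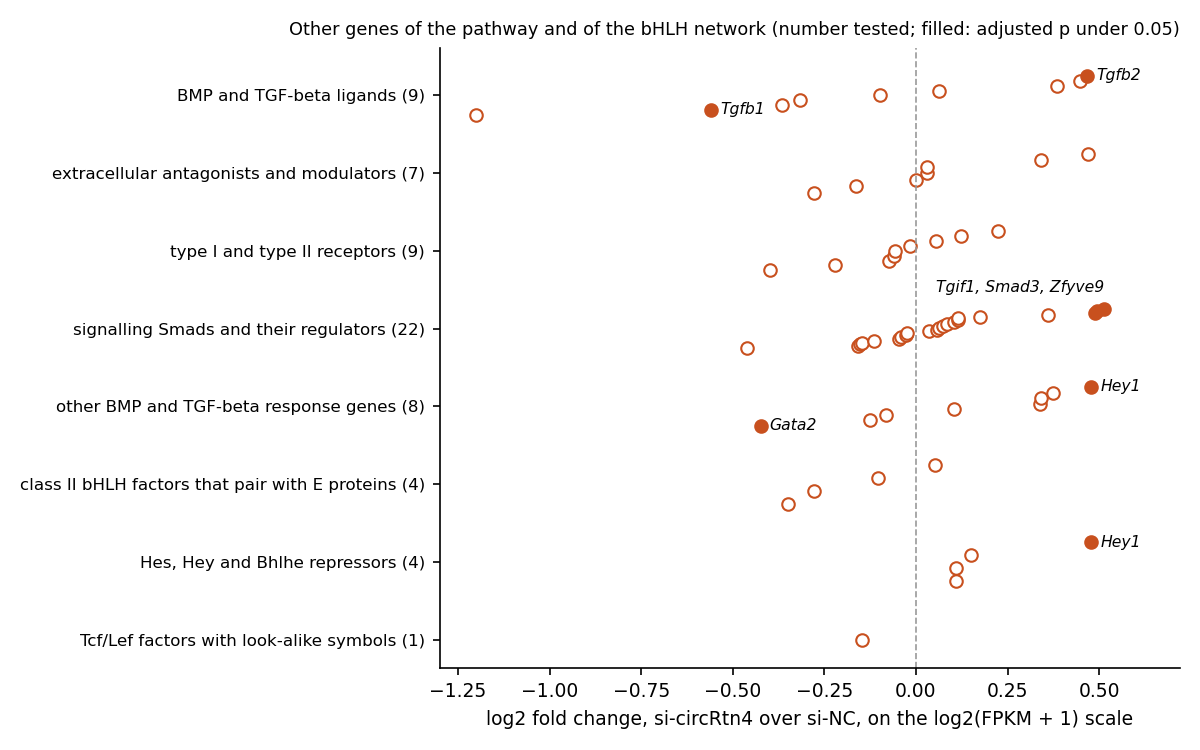
Log2 fold change of si-circRtn4 over si-NC on the log2(FPKM + 1) scale (horizontal axis) for the genes of each list that passed the filter, 1 point per gene, with the number tested after each list's name. Filled points had an adjusted p under 0.05 and are named. Called genes lie on both sides of 0 among the ligands and the other response genes and only above 0 among the signalling Smads. Genes on more than 1 list, such as Hey1, appear on each.

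Other response genes of the pathway moved both ways, with 1 of 8 tested called higher, 1 called lower and a median of 0.22. Hey1, a bHLH repressor that responds to BMP and Notch signals, was at 3.47, 3.44 and 3.44 FPKM in si-NC and at 5.60, 5.43 and 4.61 FPKM in si-circRtn4 (log2 fold change 0.48, adjusted p = 0.0202 in limma). Gata2, a zinc finger factor of sympathetic neurons, was at 30.2, 29.8 and 28.6 FPKM in si-NC and at 20.8, 21.2 and 23.2 FPKM in si-circRtn4 (log2 fold change -0.42, adjusted p = 0.0144 in limma). Over the 14 alternatives the call of Hey1 was lost in 5 and that of Gata2 in 3. Of the bHLH repressors of the Hes, Hey and Bhlhe families, 4 of 12 were tested, and Hey1 was the 1 called.

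The tissue-restricted partners of the E proteins were few in these cells. Of 41 class II bHLH genes, 4 passed the filter and 17 were listed at 0 in every library. Hand2, the partner known from sympathetic neurons, was at a mean of 208.4 FPKM in si-NC and 193.3 FPKM in si-circRtn4, above the E proteins and the Id genes on the FPKM scale (log2 fold change -0.10, adjusted p = 0.593 in limma). Tal1 was at 9.69 and 7.83 FPKM (log2 fold change -0.28, adjusted p = 0.0639 in limma), Lyl1 at 2.45 and 2.56 FPKM and Scx at 2.71 and 1.96 FPKM. None of the 4 was called. Of the Tcf/Lef factors whose symbols look like those of the E proteins, 1 of 4 passed the filter, Tcf7 at means of 3.92 and 3.44 FPKM (adjusted p = 0.601 in limma).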

How the data were processed

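Gene expression in 6 libraries of N2a cells (3 si-NC, 3 si-circRtn4) was taken from FPKM values that the authors deposited for each gene, grouped by the sample labels. The submitters' processing notes name Bowtie 0.12.2 and the builds mm8 and mm9, but 98.3% of the listed genes found in GENCODE M21 have the same start and end there, so coordinates are GRCm38. The counting tool was not given in the sources used here. A further 6 columns belong to samples outside this comparison and stayed unused.

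Dividing by the smallest step of a library turned 100% of its length-weighted FPKM values into whole reads (within 0.01 reads), 13541198 to 15122063 per library. The limma package (3.58.1, R 4.3.3, lmFit and eBayes with trend) was fitted to log2(FPKM + 1) of the 12749 genes whose mean reached 1 FPKM, with Benjamini-Hochberg adjustment over all of them. For single genes an exact permutation test (two-sided) was run beside it. Deviations from the group means correlated at 0.190 to 0.331 between libraries of the same replicate number and at -0.228 to 0.00913 between other libraries, so the numbers were treated as pairs in a fit with replicate number as a block. Python 3.11.15 was used for sequences and sums. The fits were tested on simulated data.

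The 9 genes and all lists were chosen with earlier results of these data known. The genes named were the 9, those called in each list, the 2 genes most like each of the 9 that was called, and Rtn4. Tgfb3, Bmp1, Bmp2, Bmp4, Bmp6, Bmp7, Gdf7, Gdf11, Gdf15, Nog, Bmpr1a, Acvr1 and Amhr2 were also named, outside this rule, after their values were seen. So were Smad1, Smad4, Smad5, Smad9, the bHLH partners, Tcf7 and the markers.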

Additional observations from a re-analysis of the deposited data

How the results depend on the processing

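Over the 14 alternatives (another pseudocount, no filter, replicate number as a block, 3 scalings, limma-voom on the recovered reads, no mean-variance trend and each library left out), 97 of 112 values of the genes tested kept their direction and their side of the threshold. Rescaling to the same FPKM sum moved the split of all calls from 556 higher and 615 lower to 876 and 359. With the gene of the largest FPKM left out of that sum, the split was 542 and 490. This gene held 20.1% to 20.7% of the FPKM sum in si-NC and 13.5% to 18.8% in si-circRtn4. The log2 fold change of Tcf4 turned positive with the rescaling to the full sum (0.042). Leaving out 1 library put it between -0.183 and 0.042, positive when si-NC replicate 3 (0.042) or a si-circRtn4 library, replicate 1 (0.033) or 2 (0.012), was left out. Smad6 lay between -0.128 and 0.214 in these fits, negative when si-NC replicate 2 (-0.030) or 3 (-0.128), or si-circRtn4 replicate 1 (-0.030) or 2 (-0.083), was left out. Of the 9 genes, 0 were called by limma when all detected genes were tested (4 at an unadjusted p under 0.05), 2 with replicate number as a block, 2 in limma-voom (12.8% of all genes tested), 2 without the trend (8.58%), and 0 to 1 without 1 library (2 to 3 at an unadjusted p under 0.05). Of all genes tested, 471 (1.66%) were called when all detected genes were tested and 2428 (19.0%) with the block. Without 1 library 380 to 826 (2.98% to 6.48%) were called, beside 1171 (9.19%) with all 6 libraries and the filter. The pathway and bHLH lists, with 7 calls of 61 tested, were recomputed under these alternatives after their values were seen. They gave 1 call of 120 tested when all detected genes were tested, 12 of 61 with the block and 13 of 61 in limma-voom. Rescaling without the gene of the largest FPKM gave 4 of 72, where 6.38% of all genes tested were called. Without 1 library 0 to 6 of 61 were called. The block changed no other call among the 9 genes. The cause of these changes was not tested. Read depth limits Id2 most, at 3 to 24 reads per library.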
